A study of Mus musculus with 36 samples.

Results

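The aquaporins and the vasopressin V2 receptor of the mouse kidney were examined as a group of 9 genes, namely Aqp1, Aqp2, Aqp3, Aqp4, Aqp6, Aqp7, Aqp8, Aqp11 and Avpr2, out of 20454 gene symbols in the count table. Members were chosen by name, and for a gene with several RefSeq transcripts the row with the highest mean count was used. In 2 models of autosomal dominant polycystic kidney disease, on a C57BL/6 background, whole kidneys were taken 1, 3 or 7 days after birth (P1, P3, P7), with 3 libraries in each of 12 groups and 36 in all. KO mice carried floxed Pkd1 (Pkd1 f/f:HoxB7-Cre) or floxed Pkd2 (Pkd2 f/f:HoxB7-Cre) together with a HoxB7-driven Cre recombinase that acts in the collecting duct, and WT mice were Pkd1 f/f or Pkd2 f/f littermates without Cre. Both genotypes therefore carried the floxed allele. The comparison asked how these genes differed between KO and WT as cysts formed in the first week after birth. Since the RNA came from the whole kidney and Cre acts in the collecting duct only, fewer cells of a type and less RNA per cell cannot be told apart in these values.

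Aquaporins are membrane channels that let water, and in some members glycerol, cross the epithelium of the nephron. In principal cells of the collecting duct, vasopressin binds the V2 receptor (Avpr2), raises cyclic AMP and sends Aqp2 to the apical membrane, and water then leaves the cell through Aqp3 and Aqp4 at the basolateral side. Aqp1 carries the bulk of water reabsorption in the proximal tubule and descending thin limb, Aqp6 lies in vesicles of intercalated cells, and Aqp7, Aqp8 and Aqp11 belong mainly to proximal tubule cells. In mice, loss of Aqp11 itself causes polycystic kidneys.

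The promoters of the 3 most abundant members, Aqp2, Aqp1 and Aqp3, are shown because cyclic AMP acts on Aqp2 transcription through a cyclic AMP response element. Each sequence holds the 250 bases upstream of the RefSeq start on the gene's own strand, in GRCm38.p6, at chr15:99578806-99579055 for Aqp2, chr6:55336049-55336298 for Aqp1 and chr4:41098184-41098433 for Aqp3. Capitals mark matches to the cyclic AMP response element core TGACG, the GATA motif GATAA and the TATA motif TATAAA, searched on both strands.
Aqp2: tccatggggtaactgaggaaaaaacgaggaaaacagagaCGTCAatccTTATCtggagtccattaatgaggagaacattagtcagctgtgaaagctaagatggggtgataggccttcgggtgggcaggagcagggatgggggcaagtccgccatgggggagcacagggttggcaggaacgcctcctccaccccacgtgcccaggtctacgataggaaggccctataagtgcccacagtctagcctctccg
Aqp1: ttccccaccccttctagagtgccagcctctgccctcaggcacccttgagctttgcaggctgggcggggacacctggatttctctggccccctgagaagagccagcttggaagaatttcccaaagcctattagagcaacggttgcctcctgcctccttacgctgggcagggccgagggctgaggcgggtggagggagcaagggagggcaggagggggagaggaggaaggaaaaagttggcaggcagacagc
Aqp3: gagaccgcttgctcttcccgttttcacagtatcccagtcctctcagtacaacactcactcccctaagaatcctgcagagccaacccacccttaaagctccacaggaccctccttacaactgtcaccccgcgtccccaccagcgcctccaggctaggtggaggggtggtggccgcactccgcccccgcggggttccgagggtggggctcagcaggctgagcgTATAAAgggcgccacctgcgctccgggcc
The Aqp2 promoter held a core match (CGTCA, opposite strand) at -211 to -207 and a GATA match (TTATC, opposite strand) at -202 to -198, counted from the start. The Aqp3 promoter held TATAAA at -29 to -24, and the Aqp1 window held none of the 3 motifs. Over 32851 promoters of the same length, the core matched in 17.8%, GATAA in 22.6% and TATAAA in 12.4%. The full element TGACGTCA matched in 1.55% of promoters and in none of these 3. These matches are a description of letters and not of bound sites.

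Library totals ranged from 7179152 to 15850818 counts, with a median of 13143336. Y-linked transcripts were present in 18 libraries (at least 3926 counts) and near absent in 18 (at most 5 counts). At P7 of the Pkd1 model, all 3 KO and 0 of 3 WT libraries held Y-linked counts, so that sex and genotype cannot be told apart there. At P7 of the Pkd2 model the numbers were 3 of 3 KO and 2 of 3 WT. The count of the targeted gene over its whole transcript was a weak check of the deletion, since only 4 exons of Pkd1 or 2 exons of Pkd2 are removed, in collecting duct cells only. In Pkd1 KO the Pkd1 transcript differed from WT by -0.20, -0.07 and 0.10 on the log2 scale at P1, P3 and P7, none called. In Pkd2 KO the Pkd2 transcript differed by -0.21, 0.01 and -0.29, the last with an adjusted p of 0.0122.

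Levels are given as counts per 1000000 counts of a library (CPM), scaled by TMM factors within each model. A gene was called where edgeR's quasi-likelihood test, adjusted by Benjamini-Hochberg over all rows tested, gave an adjusted p under 0.05. Of the 9 members, 6 had more than 0 counts in every library and passed the filter on low counts in both models: Aqp1, Aqp2, Aqp3, Aqp6, Aqp7 and Aqp11. Their smallest counts in any library were 1198, 461, 1034, 80, 68 and 117, respectively.

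The V2 receptor could not be read from this table. Avpr2, on chrX:73891765-73894428, had 3 transcript rows, all listed at 0 in all 36 libraries. Aqp8 (chr7:123462294-123468003) had 2 rows at 0 in all 36 libraries. Aqp4, the basolateral partner of Aqp3, had 8 rows, of which 6 were at 0 throughout, and its best row held 0 to 5 counts, with 18 libraries at 0. Each of the 6 measured members had a single row. The default mode of the counting program leaves out a read that fits several transcripts, and genes with several rows were low throughout the table. Of 4726 genes with 2 or more rows, 47.8% averaged under 1 count per library, against 25.9% of 15728 genes with 1 row. Among 126 kidney and blood genes of the lists used below, 26 of 42 with 2 or more rows averaged under 1 count, against 7 of 84 with 1 row, of which 6 were haemoglobin genes. Genes of high kidney abundance such as Umod, the main protein of the thick ascending limb, were among them. The zeros of Avpr2, Aqp8 and Aqp4 are therefore listed as zeros and are not read as absence of the transcript. The other aquaporins of the table were Aqp9 and Aqp12, with 2 rows each and 0 counts throughout, Aqp5 with 6 to 45 counts and Mip (Aqp0) with 1 to 24.

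Compared per kilobase of transcript, the members fell into an abundant and a scarce set in all 12 groups. In WT kidneys at P7, Aqp1 averaged 307 CPM per kb for Pkd1 and 331 for Pkd2, and Aqp2 averaged 278 and 318. The ranges of these 2 genes overlapped in both models, so their order was within the spread of the libraries. Aqp3 followed at 117 and 119 CPM per kb, below the lowest Aqp2 library. Aqp6 averaged 35.7 and 30.6, Aqp11 7.38 and 7.20, and Aqp7 5.41 and 5.46 CPM per kb, without overlap between neighbours in this order. At P1 the order was different, with Aqp2 ahead of Aqp1 at 296 against 160 CPM per kb in Pkd1 WT and 385 against 202 in Pkd2 WT, without overlap. In KO kidneys at P7, Aqp1, Aqp2 and Aqp3 lay closer together, at 73.8, 57.2 and 51.3 CPM per kb in Pkd1 KO. In Pkd2 KO, Aqp3 averaged 65.6 and Aqp2 61.2 CPM per kb, with overlapping ranges.

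Between P1 and P7, the measured members differed in how they changed in WT kidneys. Aqp6 rose in both models, Aqp1 and Aqp3 rose in Pkd1 WT, and Aqp2 kept a wide spread at every age. Y-linked counts were present in 2 of 3 Pkd1 WT libraries at P1 and in 0 of 3 at P7. In Pkd2 WT they were present in 1 of 3 at P1 and in 2 of 3 at P7. Age and sex are thus mixed in these comparisons, and the part of sex was not tested. In Pkd1 WT, 3 of 6 members were called, all higher, beside 17.9% of all 12527 rows in either direction. In Pkd2 WT, 1 of 6 was called, beside 19.2% of 12633 rows. Aqp6 CPM in Pkd1 WT was 13.8, 14.8 and 10 at P1 and 58.3, 109 and 53.3 at P7, a log2 fold change of 2.52 (SE 0.32, adjusted p = 0.00108). All P7 libraries were above all P1 libraries, and 35.1% of all rows were likewise without overlap between these ages. In Pkd2 WT, Aqp6 CPM was 24.0, 21.6 and 19.0 at P1 and 74.6, 51.6 and 63.2 at P7. The log2 fold change was 1.55 (SE 0.43, adjusted p = 0.0344), again without overlap, as in 44.3% of all rows. This Pkd2 call was lost on leaving out any of the 6 P1 and P7 libraries, with adjusted p values from 0.0582 (without WT P7 replicate 2) to 0.125 (without WT P1 replicate 3). The log2 fold change stayed between 1.41 and 1.68 in those fits.

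Aqp1 in Pkd1 WT had 437, 515 and 304 CPM at P1 and 725, 1040 and 649 CPM at P7. This was a log2 fold change of 0.94 (SE 0.22, adjusted p = 0.0149), with no overlap between the ages, as in 35.1% of all rows. In Pkd2 WT, Aqp1 had a log2 fold change of 0.71 (SE 0.26), which was not called at an adjusted p of 0.0851 and was called by DESeq2 (adjusted p = 0.0215). Aqp3 in Pkd1 WT had a log2 fold change of 0.48 (SE 0.12, adjusted p = 0.0185), which was lost without WT P1 replicate 1 (adjusted p = 0.0602) or WT P7 replicate 1 (adjusted p = 0.0738). In Pkd2 WT the Aqp3 value was 0.02 (SE 0.18). Aqp2 did not pass the test in either model, with log2 fold changes of -0.09 (SE 0.30) and -0.28 (SE 0.53). Aqp7 and Aqp11 had log2 fold changes from 0.43 to 0.56 over both models, not called by edgeR. In Pkd1 WT, Aqp11 (adjusted p = 0.0519) was called by DESeq2 (adjusted p = 0.0223) and by edgeR without WT P1 replicate 3 (adjusted p = 0.0449). DESeq2 called 4 of 6 members there, beside 2975 of 12527 rows. Between P1 and P3, no member was called in either WT model by edgeR, beside 0.12% of rows in Pkd1 and 0.0317% in Pkd2. At an unadjusted p under 0.05 there were 4 and 2 members, beside 1506 of 12527 rows in Pkd1 and 1890 of 12633 in Pkd2. DESeq2 called 0 and 1 (Aqp3 in Pkd2 WT, log2 fold change -0.78), beside 196 and 331 rows.

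**Figure D1:**
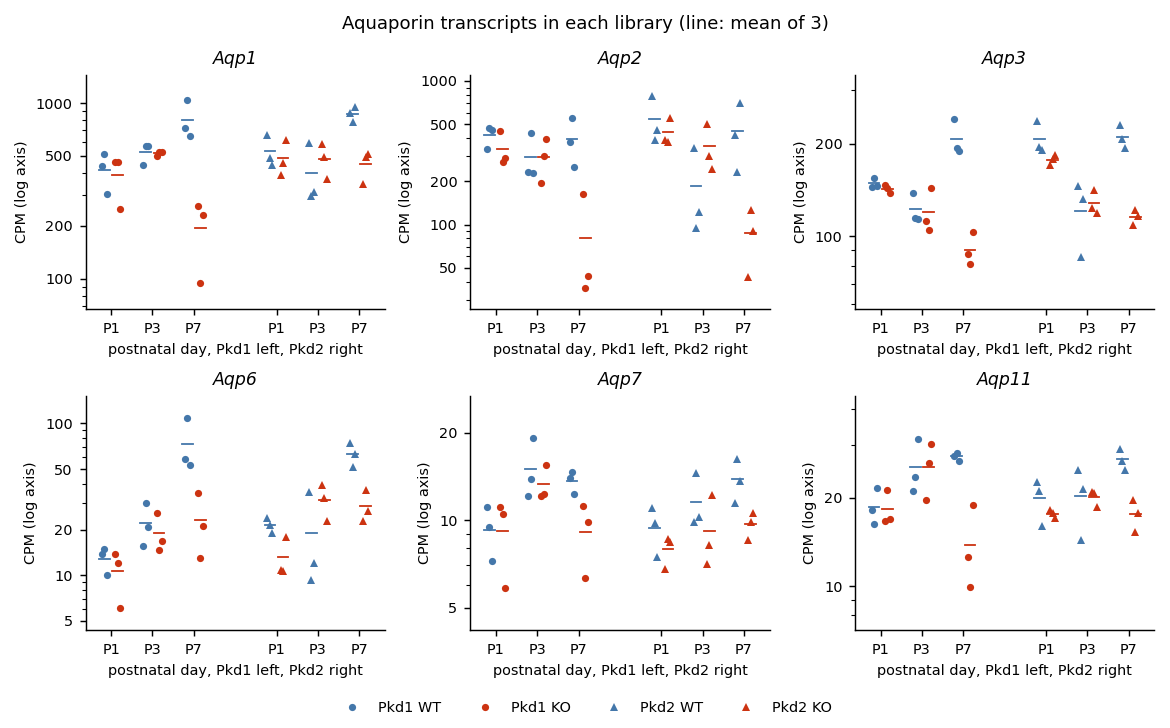
CPM on a log axis of the 6 measured aquaporins in each of 36 libraries, by postnatal day, with the Pkd1 model at the left (circles) and the Pkd2 model at the right (triangles). Blue is WT, red is KO and lines are means of 3. At P7 every KO library lies below every WT library for all 6 genes, while at P1 and P3 all WT and KO groups overlap other than those of Aqp3 and Aqp6 in Pkd2 at P1. Of all rows, 38.7% in Pkd1 and 35.1% in Pkd2 at P7 were without overlap, and 11.3% in Pkd2 at P1.

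At the earlier ages, no member passed the test between KO and WT kidneys. At P1 and P3, 0 of 6 members were called by edgeR or by DESeq2 in either model. In the whole table, edgeR called 0.0% of rows in both models at P1 and in Pkd2 at P3, and 0.00798% in Pkd1 at P3. At an unadjusted p under 0.05, 161 rows in Pkd1 and 708 in Pkd2 differed at P1, and 1767 in Pkd1 and 563 in Pkd2 at P3. DESeq2 called 2, 33, 248 and 38 rows in these 4 comparisons. At an unadjusted p under 0.05 there was no member in Pkd1 at P1 or P3, or in Pkd2 at P3. In Pkd2 at P1 there were 2, Aqp6 and Aqp3. Aqp6 had 24.0, 21.6 and 19.0 CPM in WT and 10.8, 10.6 and 18 CPM in KO, a log2 fold change of -0.71 (SE 0.22) with an adjusted p of 0.854. The Aqp3 log2 fold change there was -0.22 (SE 0.09, adjusted p = 0.864). Both were without overlap between the groups, as were 11.3% of all rows in that comparison. In Pkd2 at P3, Aqp2 was spread widely, with 344, 94.0 and 122 CPM in WT and 505, 300 and 245 CPM in KO. The groups overlapped and the log2 fold change of 0.91 (SE 0.51) was not called.

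At P7, transcripts of 5 of the 6 measured aquaporins were lower in KO than in WT kidneys in both models: Aqp1, Aqp2, Aqp3, Aqp6 and Aqp11. The sixth, Aqp7, had negative values that did not pass the test. In Pkd1 KO, 5 of 6 members were called, all lower, beside 13.7% of all rows in either direction and 7.54% called lower. In Pkd2 KO, 5 of 6 were called, all lower, beside 13.9% in either direction and 6.06% called lower. The same 5 genes were called in both models, whose libraries are separate. The median log2 fold change of the 6 members was -1.43 in Pkd1 and -0.91 in Pkd2, where the medians of all rows were -0.01 and 0.00. For all 6 members, WT and KO libraries did not overlap in either model, and 38.7% of all rows in Pkd1 and 35.1% in Pkd2 were likewise without overlap. DESeq2 called 5 of 6 in each model, beside 2763 of 12527 rows in Pkd1 and 2254 of 12633 in Pkd2.

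Aqp2, the vasopressin-regulated apical channel of principal cells (chr15:99579056-99584545), had the largest fitted fall of the measured members in both models, in Pkd1 within the SE of that of Aqp1. In the Pkd1 model at P7 it had 375, 556 and 253 CPM in WT and 163, 36.1 and 44.0 CPM in KO. KO replicate 1 lay above the other two KO libraries, and no KO library reached the lowest WT library. The log2 fold change was -2.28 (SE 0.56, adjusted p = 0.0357), a 4.86-fold difference. The call was lost without WT replicate 1 (adjusted p = 0.0971), WT replicate 2 (0.0721), KO replicate 2 (0.117) or KO replicate 3 (0.0867). Without KO replicate 1 the log2 fold change was -3.29. In the Pkd2 model at P7, Aqp2 had 419, 234 and 700 CPM in WT and 43.3, 127 and 89.9 CPM in KO, a log2 fold change of -2.38 (SE 0.46, adjusted p = 0.0151). WT libraries differed widely among themselves, and all lay above KO. Without WT replicate 1 or KO replicate 3, the adjusted p was 0.0530 or 0.0583.

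Aqp3, which lets water and glycerol leave principal cells at the basolateral side (chr4:41092724-41098183), had a smaller fall and the least spread. It had 240, 193 and 189 CPM in Pkd1 WT and 87.4, 81.1 and 103 CPM in Pkd1 KO. KO was lower by a log2 fold change of -1.19 (SE 0.14, adjusted p = 0.00606). In the Pkd2 model it had 231, 208 and 193 CPM in WT and 109, 122 and 116 CPM in KO. Here the log2 fold change was -0.86 (SE 0.08, adjusted p = 0.000778). All 3 KO libraries of either model lay within a narrow band well below WT, and the call held on leaving out each library in turn in both models. Over the 12 groups, the median coefficient of variation among 3 libraries was 10.2% for Aqp3 and 39.2% for Aqp2. The count of Aqp2 per count of Aqp3 within a library ran from 1.34 to 2.88 in Pkd1 WT and from 0.43 to 1.87 in Pkd1 KO at P7, with overlap. In the Pkd2 model it ran from 1.13 to 3.63 in WT and from 0.40 to 1.04 in KO, without overlap.

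Aqp6, the vesicular channel of intercalated cells (chr15:99598468-99605478), lay close to Aqp2 in the genome. In Pkd1 at P7 it had 58.3, 109 and 53.3 CPM in WT and 34.9, 13 and 21.2 CPM in KO. This gave a log2 fold change of -1.68 (SE 0.38, adjusted p = 0.0294). The call was lost without WT replicate 1 (adjusted p = 0.0707), WT replicate 2 (0.0549), KO replicate 2 (0.0979) or KO replicate 3 (0.0759). In Pkd2 it had 74.6, 51.6 and 63.2 CPM in WT and 22.7, 36.2 and 26.7 CPM in KO. Here the log2 fold change was -1.14 (SE 0.19, adjusted p = 0.00843), and it was called with any library left out. Aqp5 lies between Aqp2 and Aqp6, 6.5 kb from the first and 3.6 kb from the second. It was scarce and did not pass the test at P7, at a log2 fold change of 0.53 (SE 0.51) in Pkd1 and 0.36 (SE 0.68) in Pkd2. The lncRNA Gm34765 overlaps Aqp2, Aqp5 and Aqp6 in the annotation. The strand setting of the counting was not given beyond the default options, so reads of overlapping genes may not be fully separated.

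Among the members of the proximal tubule, Aqp1 (chr6:55336299-55348555) was lower in KO in both models. In Pkd1 at P7 it had 725, 1040 and 649 CPM in WT and 259, 93.9 and 229 CPM in KO. KO replicate 2 was the lowest of all 36 libraries, and the highest KO library was well under the lowest WT library. The log2 fold change was -2.05 (SE 0.36, adjusted p = 0.0138), a 4.15-fold difference, and ranged from -2.31 to -1.72 with each library left out, always called. In Pkd2 it had 883, 784 and 946 CPM in WT and 346, 495 and 513 CPM in KO. Here the log2 fold change was -0.95 (SE 0.15, adjusted p = 0.00656), a 1.93-fold difference, called with any library left out.

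Aqp11, an intracellular channel of proximal tubule cells (chr7:97726379-97738247), had 27.7, 28.4 and 26.6 CPM in Pkd1 WT and 12.6, 9.96 and 18.8 CPM in Pkd1 KO at P7. The log2 fold change was -1.0 (SE 0.23, adjusted p = 0.0313). The call was lost without WT replicate 1 (adjusted p = 0.107), WT replicate 2 (0.0616), KO replicate 1 (0.0936) or KO replicate 2 (0.103). WT libraries were tightly grouped and KO libraries were spread below them. In Pkd2 it had 29.3, 26.6 and 24.8 CPM in WT and 19.6, 15.3 and 17.7 CPM in KO. This was a log2 fold change of -0.62 (SE 0.12, adjusted p = 0.0163), lost without WT replicate 1 (adjusted p = 0.0763), KO replicate 2 (0.0569) or KO replicate 3 (0.0602). Aqp7, a glycerol and water channel of the straight proximal tubule (chr4:41033074-41048237), had 14.0, 14.7 and 12.3 CPM in Pkd1 WT against 11.2, 6.35 and 9.89 CPM in Pkd1 KO. In Pkd2 it had 11.5, 16.3 and 13.7 CPM in WT against 8.54, 9.89 and 10.6 CPM in KO. Its log2 fold changes of -0.58 (SE 0.25, adjusted p = 0.138) and -0.51 (SE 0.17, adjusted p = 0.0860) were not called. The groups did not overlap, as in 38.7% of all rows in Pkd1 and 35.1% in Pkd2. Aqp7 and Aqp3 are neighbours on chromosome 4, 44.5 kb apart.

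**Figure D2:**
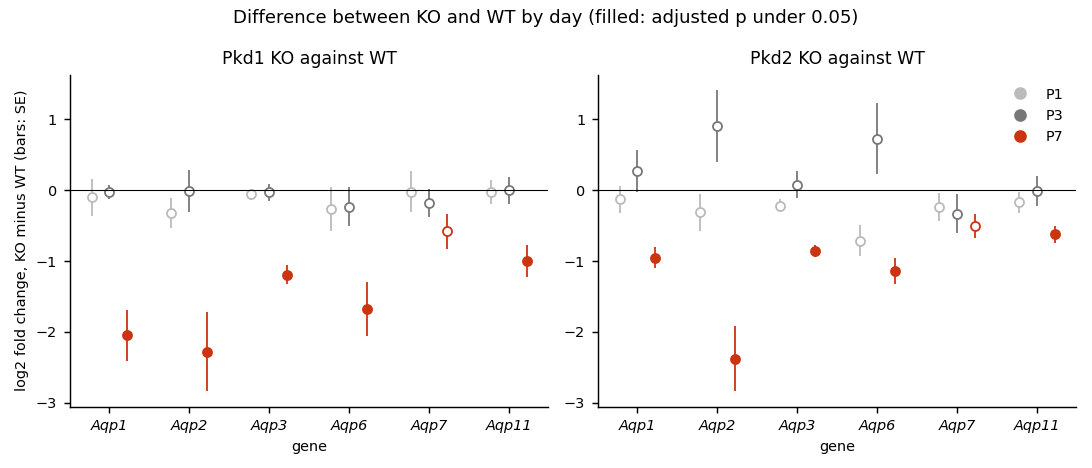
Log2 fold change between KO and WT of the 6 measured aquaporins at P1, P3 and P7 in the Pkd1 model (left) and the Pkd2 model (right), with bars for the SE and filled points for an adjusted p under 0.05. Filled points occur at P7 only, for 5 of 6 genes in each model, with Aqp2 lowest at -2.28 and -2.38.

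Values with sex accounted for were obtained where the libraries allowed it. In the Pkd2 model, leaving out WT replicate 3, the only P7 library of that model without Y-linked counts, gave 5 of 6 members called. The log2 fold change was then -1.91 for Aqp2, -0.92 for Aqp3 and -0.88 for Aqp1. With a sex covariate (Y-linked counts present or not) over all 18 libraries of the Pkd2 model, 5 of 6 members were called. In the Pkd1 model the same fit called 0 of 6 at P7, with log2 fold changes of -2.02 for Aqp2, -1.58 for Aqp1 and -1.10 for Aqp3 (adjusted p = 0.325, 0.248 and 0.0908). In that fit only the Pkd1 WT P1 group held libraries of both kinds. The share of all rows called is not given for the fits of this paragraph. These counts of members therefore cannot be set beside it. With all 18 libraries in one fit and no such covariate, Aqp6 alone lost its call in Pkd2 (adjusted p = 0.0566).

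The P7 effect was set against the P1 effect, and the Pkd1 effect against the Pkd2 effect, by interaction terms. In the Pkd1 model, 2 of 6 members had a KO effect at P7 that differed from that at P1, beside 7.75% of all rows. These were Aqp1, with a difference of -1.95 on the log2 scale (SE 0.44, adjusted p = 0.0147), and Aqp3, with -1.14 (SE 0.18, adjusted p = 0.00238), both called with each P1 or P7 library left out in turn. Aqp2 had a difference of -1.96 (SE 0.65, adjusted p = 0.0706). Without WT P7 replicate 3 or KO P7 replicate 1, Aqp2 was called (adjusted p = 0.0330 and 0.00490). In the Pkd2 model, 0 of 6 members were called by edgeR or by DESeq2, beside 1.3% of rows called by edgeR. An unadjusted p under 0.05 was reached by 3 members and by 1954 of 12633 rows. The Aqp2 difference there was -2.06 (SE 0.71, adjusted p = 0.175). Between the models at P7, 0 of 6 members were called by either tool and 1 had an unadjusted p under 0.05. In the table, edgeR called 0.0% of 12343 rows in this comparison, with 2130 at an unadjusted p under 0.05, and DESeq2 called 406 rows. The largest difference between the models was that of Aqp1, at -1.08 (SE 0.43, adjusted p = 0.240), and that of Aqp2 was 0.13 (SE 0.81).

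Within KO kidneys, members differed between P7 and P1 in both directions. Y-linked counts were present in 0 of 3 KO libraries at P1 and in 3 of 3 at P7, in both models. Age and sex therefore cannot be told apart in these KO values. In Pkd1 KO, P7 against P1, 4 of 6 members were called, beside 42.0% of all rows: Aqp2 fell by 2.05, Aqp1 by 1.01 and Aqp3 by 0.65 on the log2 scale, and Aqp6 rose by 1.11. In Pkd2 KO, 3 of 6 were called, beside 26.1% of rows: Aqp2 fell by 2.34 and Aqp3 by 0.62, and Aqp6 rose by 1.12. Aqp6 was thus higher at P7 than at P1 in KO as well as in WT kidneys, to a lower level in KO. Without KO P7 replicate 1 the Aqp2 value in Pkd1 KO was -3.06. In Pkd1 KO, the Aqp1 call was lost without KO P1 replicate 1 (adjusted p = 0.0872) or 2 (0.0924). The Aqp6 call was lost without KO P1 replicate 2 (0.0694) or 3 (0.0949), or KO P7 replicate 1 (0.149) or 3 (0.0539). In Pkd2 KO, all 3 calls held with each P1 or P7 library left out in turn, and Aqp1 had a log2 fold change of -0.10 (SE 0.21).

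Of 25 genes of the vasopressin pathway other than the receptor, 20 were tested at P7, with 2 lower and 0 higher in Pkd1 KO and 4 lower and 0 higher in Pkd2 KO, beside 13.7% and 13.9% of all rows called in either direction. DESeq2 called 5 and 4, beside 2763 of 12527 and 2254 of 12633 rows. Over the 20 genes the median log2 fold change was -0.25 in Pkd1 and -0.09 in Pkd2. Avpr1a, the V1a receptor for vasopressin, was lower in both models, at -1.23 (SE 0.19, adjusted p = 0.0105) and -0.65 (SE 0.11, adjusted p = 0.00837). Adcy6, an adenylyl cyclase of the collecting duct, was lower in Pkd2 KO at -0.32 (SE 0.06, adjusted p = 0.0102), and had -0.25 (SE 0.10, adjusted p = 0.130) in Pkd1 KO. Myo5b, a motor of recycling vesicles, had -0.72 (adjusted p = 0.0677) in Pkd1 KO and -0.39 (adjusted p = 0.0132) in Pkd2 KO. Gnas, the gene of the stimulatory G protein subunit, had -0.72 (adjusted p = 0.0993) and -0.62 (adjusted p = 0.0256). These are values of its row of highest mean count, which averaged 261 counts. Which transcript of Gnas that row stands for was not examined. Rab11fip2, a partner of Rab11 in vesicle recycling, had -1.96 (adjusted p = 0.0368) in Pkd1 KO and -0.23 (adjusted p = 0.523) in Pkd2 KO. Adcy3, Creb1, Arrb1, Arrb2 and Snap23 averaged under 1 count and were not tested.

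Of 12 transcription factors of the collecting duct, 8 were tested. In Pkd1 KO at P7, 1 was higher, namely Gata3, at 0.66 (SE 0.18, adjusted p = 0.0477), and in Pkd2 KO 0 were called by edgeR or by DESeq2. Gata3 had 0.12 (SE 0.24) in Pkd2 KO. Tfcp2l1, a regulator of collecting duct identity with 939 CPM in Pkd1 WT, had -0.24 (SE 0.11, adjusted p = 0.175) and -0.08 (SE 0.09, adjusted p = 0.618). Of 20 genes of urine concentration, 13 were tested. Of these, 6 were lower in Pkd1 KO and 5 in Pkd2 KO, beside 7.54% and 6.06% of all rows, with 0 higher. The medians of the 13 genes were -0.97 and -0.80. Bsnd, the barttin subunit of chloride channels, had -1.37 (adjusted p = 0.00905) and -1.04 (adjusted p = 0.00587). Ptger3, a prostaglandin E receptor that opposes vasopressin, had -1.20 (adjusted p = 0.0374) and -0.80 (adjusted p = 0.0290). Slc5a3, a myo-inositol transporter of osmotic adaptation, had -0.97 (adjusted p = 0.0570) and -0.95 (adjusted p = 0.0218). Slc12a1, the cotransporter of the thick ascending limb, had -2.22 (adjusted p = 0.0278) and -1.13 (adjusted p = 0.0641).

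Markers of the cell types that carry aquaporins changed in both directions at P7. Of all rows, 7.54% in Pkd1 and 6.06% in Pkd2 were called lower there, and 6.2% and 7.82% higher. Of 7 other principal cell markers, 5 were tested, with 1 higher and 3 lower in Pkd1 KO and 1 higher and 1 lower in Pkd2 KO. Their summed level ran from 492 to 524 CPM in Pkd1 KO against 573 to 694 CPM in WT, and from 649 to 718 CPM in Pkd2 KO against 602 to 681 CPM in WT. Scnn1b and Fxyd4 averaged under 1 count. Over the 5 tested, the median log2 fold change was -0.73 in Pkd1 KO and -0.44 in Pkd2 KO. Scnn1a, a subunit of the epithelial sodium channel, was the 1 marker called higher, by 0.45 (adjusted p = 0.0334) and 0.99 (adjusted p = 0.00627). Scnn1g, the gamma subunit, had -0.46 (adjusted p = 0.0400) and -0.23 (adjusted p = 0.142). Stc1, a secreted glycoprotein, had -1.03 (adjusted p = 0.0214) and -0.95 (adjusted p = 0.0826). The part of principal cells in the Aqp2 and Aqp3 values was not tested.

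All 8 markers of ureteric epithelium were tested, with 4 higher and 0 lower in each model, beside 6.2% and 7.82% of all rows called higher. Their summed level ran from 2540 to 3440 CPM in Pkd1 KO against 1490 to 1760 CPM in WT, and from 2440 to 2660 CPM in Pkd2 KO against 1580 to 2010 CPM in WT. The keratin Krt18 rose by 1.94 (adjusted p = 0.00254) and 1.15 (adjusted p = 0.0382), and Krt8 rose by 1.06 (adjusted p = 0.00910) and 0.71 (adjusted p = 0.00577). The called genes were Krt7, Krt8, Krt18 and Krt19 in Pkd1 KO and Krt7, Krt8, Krt18 and Wfdc2 in Pkd2 KO. Calb1, the calbindin of distal segments, had values of -1.18 (adjusted p = 0.0700) and -0.70 (adjusted p = 0.0644), Mal had -0.87 and -0.02, and Upk1b had -0.35 and -1.61, none called. These 3 genes were named after their values were seen. The part of these markers in the aquaporin result was not tested.

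Of 10 intercalated cell markers, 9 were tested and 8 were lower in each model, beside 7.54% and 6.06% of all rows. Medians of the 9 markers were -1.0 and -0.70. Their summed level ran from 670 to 787 CPM in Pkd1 KO against 1160 to 1330 CPM in WT, and from 851 to 950 CPM in Pkd2 KO against 1140 to 1440 CPM in WT. Slc4a1, the anion exchanger of acid-secreting cells, had -1.80 (adjusted p = 0.0115) and -1.04 (adjusted p = 0.00166). Foxi1, the transcription factor of intercalated cells, had -0.74 (adjusted p = 0.0111) and -0.57 (adjusted p = 0.0389). Aqp6 was also lower in KO in both models. In WT kidneys, 9 of 9 of these genes in Pkd1 and 7 of 9 in Pkd2 were higher at P7 than at P1, as Aqp6 was. Of all rows, 8.86% and 9.02% were called higher in these WT comparisons. The part of intercalated cells in the Aqp6 values was not tested.

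Of 16 proximal tubule markers, 13 were tested. Of these, 12 were lower in Pkd1 KO and 11 in Pkd2 KO, beside 7.54% and 6.06% of all rows, with 0 higher. The medians were -1.30 and -0.70, where Aqp1 had -2.05 and -0.95. The summed level ran from 1900 to 3850 CPM in Pkd1 KO against 6410 to 8530 CPM in WT, and from 4270 to 4800 CPM in Pkd2 KO against 7100 to 9170 CPM in WT. Miox, the inositol oxygenase of the proximal tubule, had -1.56 (adjusted p = 0.0143) and -1.08 (adjusted p = 0.000917). Cubn, an endocytic receptor, had -1.75 (adjusted p = 0.0102) and -0.64 (adjusted p = 0.00315). The Cre line does not act in this segment. The part of these cells in the Aqp1, Aqp7 and Aqp11 values was not tested.

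Aqp1 also marks red cells and some endothelium. Of 12 erythroid markers, 4 were tested in Pkd1 and 5 in Pkd2, with 0 called by edgeR or by DESeq2, and the haemoglobin genes were listed at 0. Of 10 endothelial markers, 1 of 6 tested was lower in Pkd1 KO by edgeR, beside 7.54% of all rows called lower. In Pkd2 KO, 5 of 7 were lower by edgeR, beside 6.06% of all rows, with 0 higher in either model. DESeq2 called 5 in each model, and the medians were -0.54 and -0.44. Kdr, a receptor for vascular endothelial growth factor, had -0.59 (adjusted p = 0.0549) and -0.44 (adjusted p = 0.00396). The endothelial sum ran from 817 to 1010 CPM in Pkd1 KO against 1120 to 1350 CPM in WT, and Pecam1 and Tek were at 0. Aqp7 is also an adipocyte gene, and of 6 adipocyte markers 2 were tested, with 0 called in Pkd1 KO by edgeR or by DESeq2 and 1 lower in Pkd2 KO. At P1 and P3, 0 list genes were called by edgeR between KO and WT, of 88 tested in Pkd1 and 90 in Pkd2. At P1, 1 in Pkd1 and 12 in Pkd2 had an unadjusted p under 0.05, and at P3 15 and 10 did, and DESeq2 called 0 to 3 in these comparisons.

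**Figure D3:**
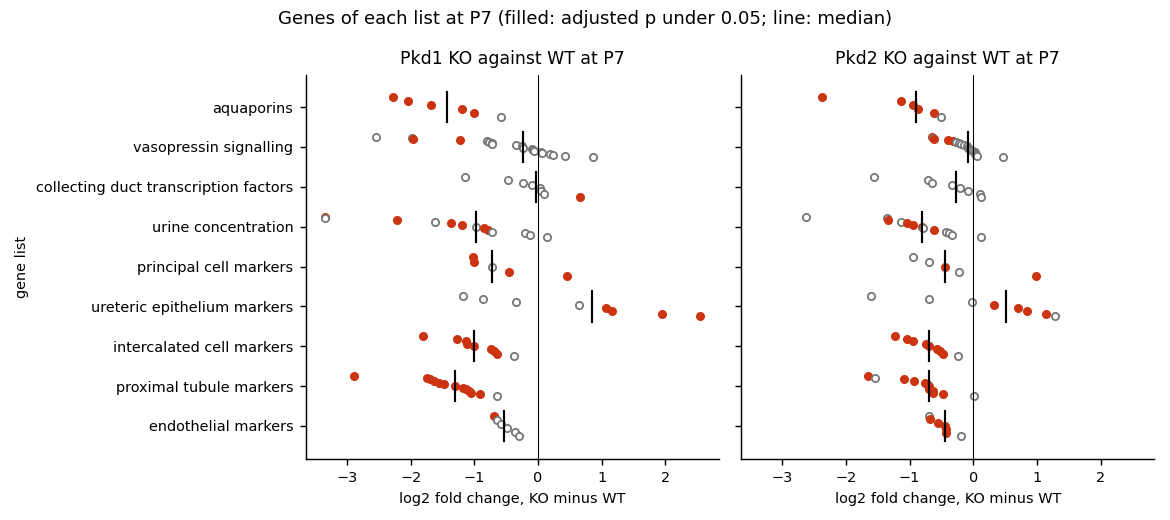
Log2 fold change between KO and WT at P7 for each tested gene of the aquaporins and of the lists, in the Pkd1 model (left) and the Pkd2 model (right), with red filled points for an adjusted p under 0.05 and black lines for medians. The aquaporin medians of -1.43 and -0.91 lie below 0, as do those of every other list shown except the ureteric epithelium. The ureteric epithelium medians of 0.85 and 0.51 lie above 0.

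The likeness of the members' patterns was described over the 36 libraries, which share 12 groups, with log2(CPM + 1) on factors common to all libraries. Among the members, Pearson's r was largest for Aqp1 with Aqp11 (0.74, Spearman's rho 0.67) and for Aqp2 with Aqp3 (0.70, rho 0.70). Close to these were Aqp1 with Aqp3 (0.69, rho 0.60), with Aqp2 (0.68, rho 0.54) and with Aqp6 (0.66, rho 0.69). For Aqp2 with its neighbour Aqp6, r was 0.19 (rho 0.15). With the group means removed, so that only differences among replicate libraries remain, r was 0.86 for Aqp1 with Aqp6, 0.72 for Aqp2 with Aqp6, 0.70 for Aqp1 with Aqp2 and 0.34 for Aqp2 with Aqp3. Libraries of one group that were high in Aqp1 were thus often high in Aqp6 and Aqp2 also, although these genes belong to different cell types.

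Among 9734 rows with a mean of at least 50 counts, those most like Aqp2 were Ptgs1 (r 0.86, rho 0.85), the cyclooxygenase of the collecting duct, and Igfbp5 (r 0.84, rho 0.82), an insulin-like growth factor binding protein. Ptger3 (r 0.83, rho 0.67), Fzd10 (r 0.83, rho 0.78) and Mctp2 (r 0.82, rho 0.74) followed. Most like Aqp1 were Aadat (r 0.94, rho 0.86), an enzyme of amino acid breakdown, Smpd1 (r 0.92, rho 0.88), an acid sphingomyelinase, and Slc22a4 (r 0.91, rho 0.91), an organic cation transporter. Abca13 (r 0.90, rho 0.86) and Atp6v1a (r 0.90, rho 0.82) came next. No such list could be made for Avpr2, whose rows are at 0.

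**Figure D4:**
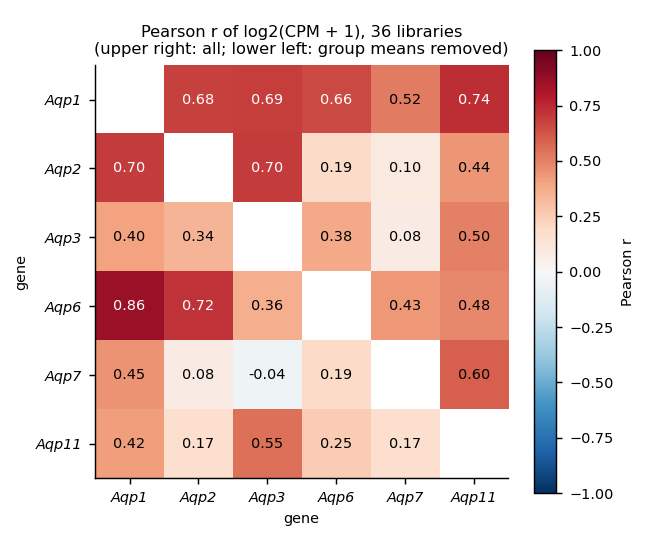
Pearson's r between the 6 measured aquaporins over 36 libraries, with all differences in the upper right and with group means removed in the lower left. Aqp2 and Aqp6 have 0.19 in the first and 0.72 in the second, and Aqp1 and Aqp6 have 0.66 and 0.86.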

How the data were processed

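Total RNA of whole mouse kidneys was sequenced on a HiSeq2000. According to the submitters' notes, the authors used CASAVA 1.8.2, TopHat2 2.1.0 with mm10 and HTSeq with default options on RefSeq transcripts, and deposited raw counts for 29996 transcript rows, which hold no normalization. Gene symbols were found for 28974 rows through NCBI RefSeq and GENCODE tables of GRCm38.p6, which also gave positions and transcript lengths, and promoter sequences are from RefSeq. Library totals of 7179152 to 15850818 counts limit the precision of scarce genes such as Aqp7, and columns of the table left unused numbered 0.

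Tested rows needed 10 or more counts in 3 or more libraries of the model, and the test was that of edgeR 4.0.16 (quasi-likelihood test, TMM factors over 18 libraries, R 4.3.3). KO was compared with WT at each age from 6 libraries, ages from 9 libraries of a genotype, and differences of effects by interaction terms. The SE is the log2 fold change divided by the root of the F statistic. Alternatives were DESeq2 1.42.0, other scaling factors, no filter, summed rows, the replicate number as a block, a covariate for Y-linked counts (present above 100 counts), and each library of the groups compared left out. Replicates are separate kidney samples by their labels, and whether they share litters is not stated, so p-values measure the spread between these samples. Replicate numbers correlated within every pair only in Pkd1 at P1 (0.419, 0.298 and 0.620), where the block called 0 members as did the fit without it.

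All 9 members were named, list genes were counted in full and up to 5 per list named by smallest adjusted p at P7 (1 such gene is not reported here), and likeness named the 5 genes of highest Pearson's r. The members, lists and tests were chosen with earlier results of these data known.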

Additional observations from a re-analysis of the deposited data

Results flagged for a closer look

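A difference between the KO effects at 2 ages was found by the interaction test for 2 genes in the Pkd1 model, beside 7.75% of all rows. The Aqp1 effect at P7 minus that at P1 was -1.95 on the log2 scale (SE 0.44, adjusted p = 0.0147), and the Aqp3 value was -1.14 (SE 0.18, adjusted p = 0.00238). At P1 the KO effects were -0.10 for Aqp1 and -0.06 for Aqp3, with overlapping groups. At P7 they were -2.05 and -1.19, with 3 of 3 KO libraries below every WT library. At P7, 38.7% of all rows in Pkd1 were likewise without overlap. Both differences were called in all 12 fits that left out a P1 or P7 library. Of the 6 Pkd1 libraries at P1, 2 WT libraries held Y-linked counts, and at P7 the 3 KO libraries did, so that sex and genotype cannot be told apart in these values. In the Pkd2 model the same differences were -0.82 for Aqp1 and -0.64 for Aqp3, not called.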

How the results depend on the processing

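With RLE factors, no filter on low counts or summed rows, no call of a member changed in any comparison. For KO against WT in Pkd1 at P7, 5 members were called, against 3 with the replicate block (Aqp1, Aqp2 and Aqp3), 0 with the Y-linked covariate and 2 to 5 with each library left out. For Pkd2 at P7, 5 were called, against 2 with a minimum change of 2-fold (Aqp2 and Aqp6) and 3 to 5 with each library left out. The Pkd1 KO effect at P7 minus P1 had 2 called members and 4 with the replicate block. Pkd2 WT P7 against P1 had 1, against 2 with DESeq2, 2 with the replicate block and 0 with each P1 or P7 library left out. Pkd2 WT P3 against P1 had 0, against 1 with DESeq2. Pkd1 KO P7 against P1 had 4, against 2 to 4 with each P1 or P7 library left out. Fits that leave out a library of the age not compared were not run. Apart from DESeq2, the share of all rows called in these alternative fits is not given here. The cause of these differences was not tested. The block moved the count of called members by over 1.5 times in no other comparison, and replicate numbers share no stated litter or day. No called value turned its direction. Levels scaled over all 36 libraries were 0.986 to 1.01 times those within a model.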
